A study of Mus musculus with 56 samples.

Results

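The 40 genes described here are effectors of the type I interferon response, chosen by symbol from a fixed list (transcription factors of the Stat and Irf families left out), and they are 40 of the 55011 gene symbols in a table of read counts from mouse regulatory T (Treg) cells. They were followed in 4 settings: in Treg cells cultured with interferon alpha (IFNa), between visceral adipose tissue (VAT) and spleen, between a high-fat diet (HFD) and a normal chow diet (NCD), and over weeks of diet. Type I interferons bind a receptor of 2 chains, Ifnar1 and Ifnar2, whose kinases Jak1 and Tyk2 phosphorylate Stat proteins. With Irf9 these form a complex that binds interferon-stimulated response elements and turns on genes whose products sense, bind or degrade viral RNA, block viral release, or damp the signal itself. VAT Treg cells are a population that depends on the nuclear receptor Pparg and the IL-33 receptor Il1rl1 and is known to restrain inflammation in fat.

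The study holds 56 RNA-seq libraries in 20 groups, 16 groups of 3 libraries and 4 groups of 2. The cultured cells came from C57BL/6 mice, aged 8 to 10 weeks, that carried the PPARgamma-tdT reporter (KI/KI) together with the Foxp3-GFP reporter (KI/y) and in which 2 doses of IL-33 had expanded VAT Treg cells. Sorted tdT+ cells were grown in IL-33 (10 ng/ml) plus IL-2 (2000 U/ml) over 3 days, either with 50 ng/ml IFNa (2 libraries) or without it (3 libraries), and Foxp3-GFP+ cells were then sorted again. Control cultures thus carried both reporter alleles and had received IL-33 in the animal and IL-33 and IL-2 in the dish, as the IFNa cultures had. The other 51 libraries hold clonotype-positive Treg cells of vTreg53 Tg+ C57BL/6 mice, which carry 1 transgenic T cell receptor from a VAT Treg clone, so that these cells do not sample the natural receptor repertoire. These mice started HFD or NCD at 12 weeks of age, and cells were taken from VAT and spleen after 2, 4, 8 or 16 weeks, and at week 0 with no diet label. The labels call these mice recipients and give no transfer step. In VAT, HFD week 4 and NCD week 16 hold 2 libraries each, as does NCD week 4 in spleen. The titles name the spleen libraries as spleen whereas their tissue field reads VAT, and the titles were followed. Pparg, Il1rl1, Klrg1, Gata3 and Areg, markers of VAT Treg cells, summed to 2410 to 7662 normalised counts per 1000000 (CPM) in the 25 libraries titled VAT and to 304 to 790 CPM in the 26 titled spleen. Foxp3 was present in every group, at 1028 CPM on average in VAT and 703 CPM in spleen without HFD. Cultured cells kept Gata3 (2182 CPM with IFNa and 1681 CPM without), while Pparg averaged 8.31 CPM with IFNa and 5.52 CPM without and Areg 14.4 CPM with IFNa and 28.5 CPM without, far below VAT cells taken directly (103 and 1110 CPM without HFD).

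Each library was made from 1000 sorted cells. Totals were 5408696 to 8764390 counts in culture, 3319873 to 6091439 in VAT and 3248686 to 5826965 in spleen, so that the limit of 3 counts lay between 0.417 and 0.974 CPM. All 40 members passed the filter on low counts in each of the 4 fits. Several passed through 1 side of a comparison alone, which is given where a comparison names such a member. Nothing in the labels says that libraries of a group came from separate animals or cultures, so p-values measure the spread between libraries, which may be technical.

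Promoter sequences are shown because the element bound by this Stat and Irf9 complex was searched for there. RefSeq promoters of GRCm38.p6 (250 bases before to 50 after the start) were found for 29 of the 40 members. The core of the interferon-stimulated response element, GAAA followed by any 2 bases and a second GAAA, was searched on both strands (TTTC, any 2 bases, TTTC on the opposite one), with overlapping matches counted. They occurred in the promoters of 15 of these 29 members (51.7%), against 1079 of 27025 genes in the whole table (3.99%). There were 23 matches at distinct positions, and 6 members held 2 or more at 1 or more start sites. Isg15, Ifit1, Ifit3, Ifit3b and Oas1a, whose matches lie before the start, are printed below from 250 to 1 bases before it, 5′ to 3′ along the gene, with matches in capitals. Isg15 lies on chr4:156200819-156201068 (minus strand), Ifit1 on chr19:34640639-34640888 (plus), Ifit3 on chr19:34583279-34583528 (plus), Ifit3b on chr19:34607707-34607956 (plus) and Oas1a on chr5:120907526-120907775 (minus). Ifih1 has its match after the start, and 30 bases around it are printed (chr2:62646206-62646235, minus strand).
Isg15: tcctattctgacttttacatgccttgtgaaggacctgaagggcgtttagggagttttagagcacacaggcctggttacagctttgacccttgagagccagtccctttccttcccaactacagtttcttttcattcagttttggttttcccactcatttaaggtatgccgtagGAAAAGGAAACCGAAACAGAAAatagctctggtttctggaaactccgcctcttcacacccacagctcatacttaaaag
Ifit1: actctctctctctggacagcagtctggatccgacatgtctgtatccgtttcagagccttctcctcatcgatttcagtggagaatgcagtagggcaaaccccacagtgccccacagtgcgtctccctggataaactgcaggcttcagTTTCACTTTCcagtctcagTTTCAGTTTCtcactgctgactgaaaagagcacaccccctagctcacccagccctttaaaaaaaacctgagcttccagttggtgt
Ifit3: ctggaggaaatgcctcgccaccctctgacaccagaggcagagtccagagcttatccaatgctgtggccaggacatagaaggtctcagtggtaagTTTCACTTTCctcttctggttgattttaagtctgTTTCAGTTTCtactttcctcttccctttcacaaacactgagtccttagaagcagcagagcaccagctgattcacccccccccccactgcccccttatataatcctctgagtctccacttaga
Ifit3b: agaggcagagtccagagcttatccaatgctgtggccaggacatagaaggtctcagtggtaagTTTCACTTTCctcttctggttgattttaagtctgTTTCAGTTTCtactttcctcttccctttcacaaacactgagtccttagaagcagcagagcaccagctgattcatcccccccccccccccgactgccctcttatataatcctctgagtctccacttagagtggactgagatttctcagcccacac
Oas1a: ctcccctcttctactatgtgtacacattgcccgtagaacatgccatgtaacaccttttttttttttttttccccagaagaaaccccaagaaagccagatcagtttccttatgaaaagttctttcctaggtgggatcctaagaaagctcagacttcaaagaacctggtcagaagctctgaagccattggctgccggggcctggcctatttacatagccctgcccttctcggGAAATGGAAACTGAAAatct
Ifih1: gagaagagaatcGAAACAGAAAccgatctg
The run of capitals in Isg15 holds 3 overlapping matches, which begin 78, 72 and 66 bases before the start, and that in Oas1a holds 2, which begin 20 and 14 bases before it. Ifit1, Ifit3 and Ifit3b each hold 2 separate matches on the opposite strand. The promoters of Ifit3 and Ifit3b, neighbouring copies on chromosome 19, share an unbroken run of 169 bases that includes both matches. A match describes letters only, not binding.

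All 40 members rose in Treg cells cultured with IFNa. The members' median log2 fold change was 3.35, against 0.01 for all 12604 genes tested, of which 10.6% rose and 21.7% changed in either direction (edgeR quasi-likelihood test with Benjamini-Hochberg adjustment over all genes tested, adjusted p under 0.05, as throughout). IFNa cultures lay above control cultures without overlap for all 40 members, against 22% of all genes. Summed over the members, the level was 27417 and 28984 CPM in IFNa cultures, against 4811, 5672 and 5161 CPM in control cultures. The filter was reached through IFNa cultures alone by 6 members (Ifit3, Ifit3b, Ifi44, Mx1, Mx2 and Rsad2), which therefore had to differ, and in both conditions by 34.

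Within the ISG15 system, Isg15, a ubiquitin-like modifier at chr4:156199424-156200818 (mm10), was at 425 and 463 CPM in IFNa cultures, against 8.04, 9.45 and 8.28 CPM in control cultures. The log2 fold change was 5.72 ± 0.11 (SE, adjusted p = 2.84e-19 by edgeR). Usp18, the protease that removes ISG15 and restrains the receptor, was at 953 and 975 CPM with IFNa, against 10.9, 16.1 and 14.3 CPM without. Herc6, the ligase that attaches ISG15 in mice, completed the group with a log2 fold change of 2.73 ± 0.14 (SE). Replicates of the same condition differed far less than the conditions did for all 3 genes.

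The IFIT family, which binds the 5′ ends of foreign RNA, held the highest median of the roles (log2 fold change 8.57). Above that median lay Ifit3 (10.55) and Ifit3b (14.16), which reached the filter through IFNa cultures alone. Ifit3 was at 947 and 991 CPM with IFNa, against 0.342, 0.972 and 0.528 CPM without. Ifit3b was at 392 and 364 CPM with IFNa and had no count in the 3 control cultures, so it was at least 2347-fold higher, taking 3 counts over the control group as the floor. Ifit3 and Ifit3b share 57.3% and 51.1% of their exonic 38-base words with other genes, mainly each other, so the split between them is uncertain. Ifit1 was at 1523 and 1675 CPM with IFNa, against 24.6, 18.1 and 8.28 CPM without, and Ifit2 had the smallest change of the family (2.89 ± 0.16 SE). The OAS family, which includes enzymes that make the second messenger that activates RNase L, had a median of 6.19. In it, Oasl2 was at 455 and 470 CPM with IFNa, against 1.71, 1.94 and 1.06 CPM without. Oas2 was at 276 and 275 CPM with IFNa, against 2.74, 4.72 and 3.87 CPM without, and no library of either condition came near the other.

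Among the 9 GTPases and other antiviral effectors, Rsad2 (viperin, a radical-SAM enzyme that makes a chain-terminating nucleotide) was at 388 and 381 CPM with IFNa, against 2.05, 1.81 and 1.06 CPM without. Mx1 was at 271 and 212 CPM with IFNa, against 0, 0.278 and 0.176 CPM without, a count ratio of 1481 with a 95% counting interval of 506 to 7184 on 3 control counts. Mx1 and Mx2 are annotated as transcribed pseudogenes in RefSeq, which reflects the C57BL/6J alleles, so their RNA is not read here as protein. Ifi44, in the group of nuclear, secreted and other members, was at 182 and 190 CPM with IFNa and had no count in control cultures, at least 1166-fold higher on the same floor. Lgals3bp, a secreted glycoprotein, was at 1921 and 2024 CPM with IFNa, against 191, 260 and 233 CPM without. Per kilobase of exon, Ifi27l2a had the highest level of the 40 in both conditions, at 14537 ± 1356 CPM per kb with IFNa (SD, n = 2) and 1456 ± 234 CPM per kb without (SD, n = 3).

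The smallest change was that of Ly6e, a GPI-anchored surface protein. It was at 2751 and 2956 CPM with IFNa, against 2349, 2533 and 2492 CPM without, a log2 fold change of 0.25 ± 0.07 (SE, adjusted p = 0.00924 by edgeR), and this call was lost without IFNa replicate 2. Ifi35 followed at 1.29 ± 0.08 (SE), and the PARP and DTX group, ADP-ribosyltransferases and a ubiquitin ligase that act together, lay at 1.45 to 1.52. The nucleic acid sensors lay between, from 1.54 ± 0.14 (SE) for Eif2ak2 (the kinase PKR) to 3.78 ± 0.10 (SE) for Dhx58 (LGP2), with Ifih1 (MDA5) at 181 and 170 CPM with IFNa, against 28.0, 31.0 and 23.4 CPM without. Slfn1, a mouse Schlafen protein named for its effect on T cell quiescence, was at 494 and 536 CPM with IFNa, against 20.5, 19.4 and 22.9 CPM without. The 15 members with a response element had a median of 3.34 and the 14 without one a median of 3.02, a difference smaller than the range within either set.

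Pathway genes upstream of the members were tested as well. Among transcription factors in IFNa cultures, Irf7 rose by 5.17 ± 0.10 on the log2 scale, Stat2 by 2.40 ± 0.09 and Irf9 by 1.38 ± 0.09 (SE), whereas Irf1 fell by 0.47 on that scale. Of 4 receptor chains Ifnar2 rose (0.35 ± 0.10 SE), and of 3 kinases Jak2 rose (0.51 ± 0.12 SE). Neither feedback gene, Socs1 or Socs3, passed the test. Treg markers moved with IFNa as well: Foxp3 averaged 644 CPM with IFNa and 1424 CPM without (log2 fold change -1.11 ± 0.07 SE), and Il2ra and Ctla4 fell too, while Cd4 rose by 0.23.

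**Figure D1:**
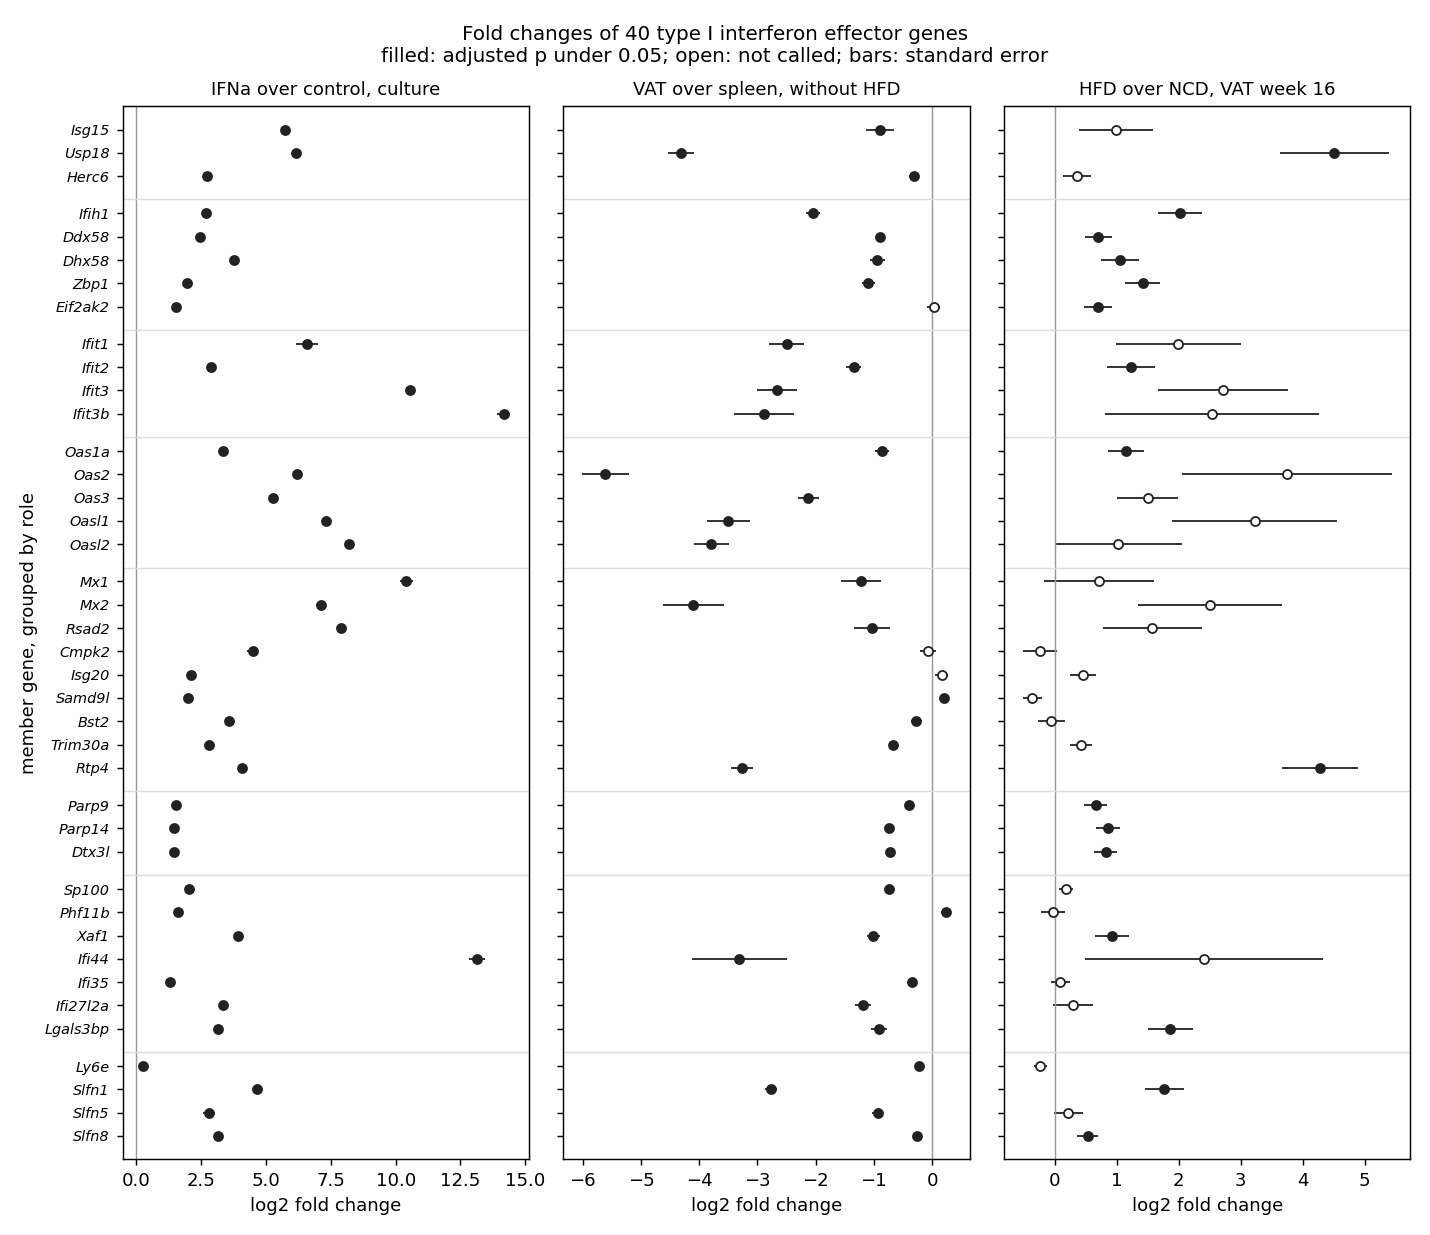
Log2 fold change of each of the 40 members, grouped by role down the page, in 3 comparisons from left to right: IFNa against control cultures, VAT against spleen without HFD, and HFD against NCD in VAT at week 16. Points are edgeR estimates, bars 1 SE, filled points passed adjusted p under 0.05. All 40 points are filled and right of 0 in culture, 35 are filled and left of 0 for VAT against spleen, and 16 are filled and right of 0 at week 16.

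In mice without HFD (week 0 and NCD weeks 2 to 16), the same genes were mostly lower in VAT than in spleen. The test called 35 of 40 lower and 2 higher in VAT, where 30% of all 15601 genes tested were lower, 29.1% higher and 59.1% differed in either direction. The members' median log2 fold change was -0.94, against -0.04 for all genes. For 12 members every VAT library lay below every spleen library, against 4.66% of all genes. Summed over the 40 members, VAT libraries ranged from 3147 to 4053 CPM with a median of 3260, and spleen libraries from 4254 to 5624 CPM with a median of 5166 (14 libraries each), with no overlap. In bulk libraries, fewer cells of a type and less RNA per cell cannot be told apart. Ifi44, Oas2 and Oasl1 reached the filter through spleen alone.

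The OAS family had the lowest median of the roles (-3.50), and all 5 of its members were lower in VAT. That median was the value of Oasl1, which like Oas2 reached the filter through spleen alone, and Oas3 lay at -2.12. Oas2 ranged from 0 to 1.04 CPM in VAT with 7 of 14 libraries at 0, against 5.52 to 22.9 CPM in spleen, a log2 fold change of -5.61 ± 0.40 (SE, adjusted p = 2.29e-16 by edgeR). Oasl2 ranged from 0 to 4.24 CPM in VAT with a median of 1.23 CPM, against 8.71 to 31.8 CPM in spleen with a median of 17.7 CPM. Oas1a was lower by less (-0.85 ± 0.12 SE), and 64.4% of its exonic words also occur in other genes, mainly Oas1g. All 4 IFIT genes were lower, from -1.35 ± 0.12 (SE) for Ifit2 to -2.89 ± 0.51 (SE) for Ifit3b. Ifit1 ranged from 2.65 to 72.8 CPM in VAT with a median of 11.2 CPM, against 48.7 to 119 CPM in spleen with a median of 78.7 CPM, so that its highest VAT library lay inside the spleen range.

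Usp18 (chr6:121245906-121270917, mm10) had the largest fold change among members detected in all 28 libraries: 1.54 to 13.3 CPM in VAT with a median of 6.76 CPM, against 93.4 to 146 CPM in spleen with a median of 109 CPM (log2 fold change -4.31 ± 0.23 SE, adjusted p = 1.24e-18 by edgeR). Rtp4, an antiviral zinc-finger protein at chr16:23520291-23614222, ranged from 0.441 to 25.2 CPM in VAT with a median of 7.64 CPM, against 46.3 to 105 CPM in spleen with a median of 72.9 CPM. Slfn1 (chr11:83116849-83122670) ranged from 23.7 to 84.9 CPM in VAT with a median of 43.2 CPM, against 213 to 334 CPM in spleen with a median of 283 CPM. The lowest spleen library stood well above the highest VAT library for each of the 3 genes. Ifih1 (chr2:62595798-62646255) was at 7.86 to 27.2 CPM in VAT and 45.8 to 79.3 CPM in spleen, also without overlap. In contrast Isg15 was scarce in both tissues, at 1.01 to 5.69 CPM in VAT and 2.34 to 8.29 CPM in spleen, and its groups overlapped although it was called lower (-0.90 ± 0.24 SE).

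The other 5 members were not lower. Samd9l, a cytoplasmic restriction factor, ranged from 284 to 453 CPM in VAT, against 219 to 341 CPM in spleen (log2 fold change 0.21 ± 0.07 SE), and Phf11b was also called higher (0.24 ± 0.09 SE). Both calls depended on scaling. With libraries scaled by total count, the median of all genes moved to -0.26, Samd9l to -0.01 and Phf11b to 0.03, and neither passed, while 35 members were called lower. The call for Phf11b was also lost without spleen NCD week 4 replicate 1. Isg20 (0.17 ± 0.11 SE), Cmpk2 (-0.07 ± 0.14 SE) and Eif2ak2 (0.03 ± 0.11 SE) did not pass the test. Eif2ak2 ranged from 39.3 to 66.6 CPM in VAT and 37.1 to 73.6 CPM in spleen, so its VAT range lay within that of spleen. The 95% interval of its difference was -0.18 to 0.24 on the log2 scale.

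**Figure D2:**
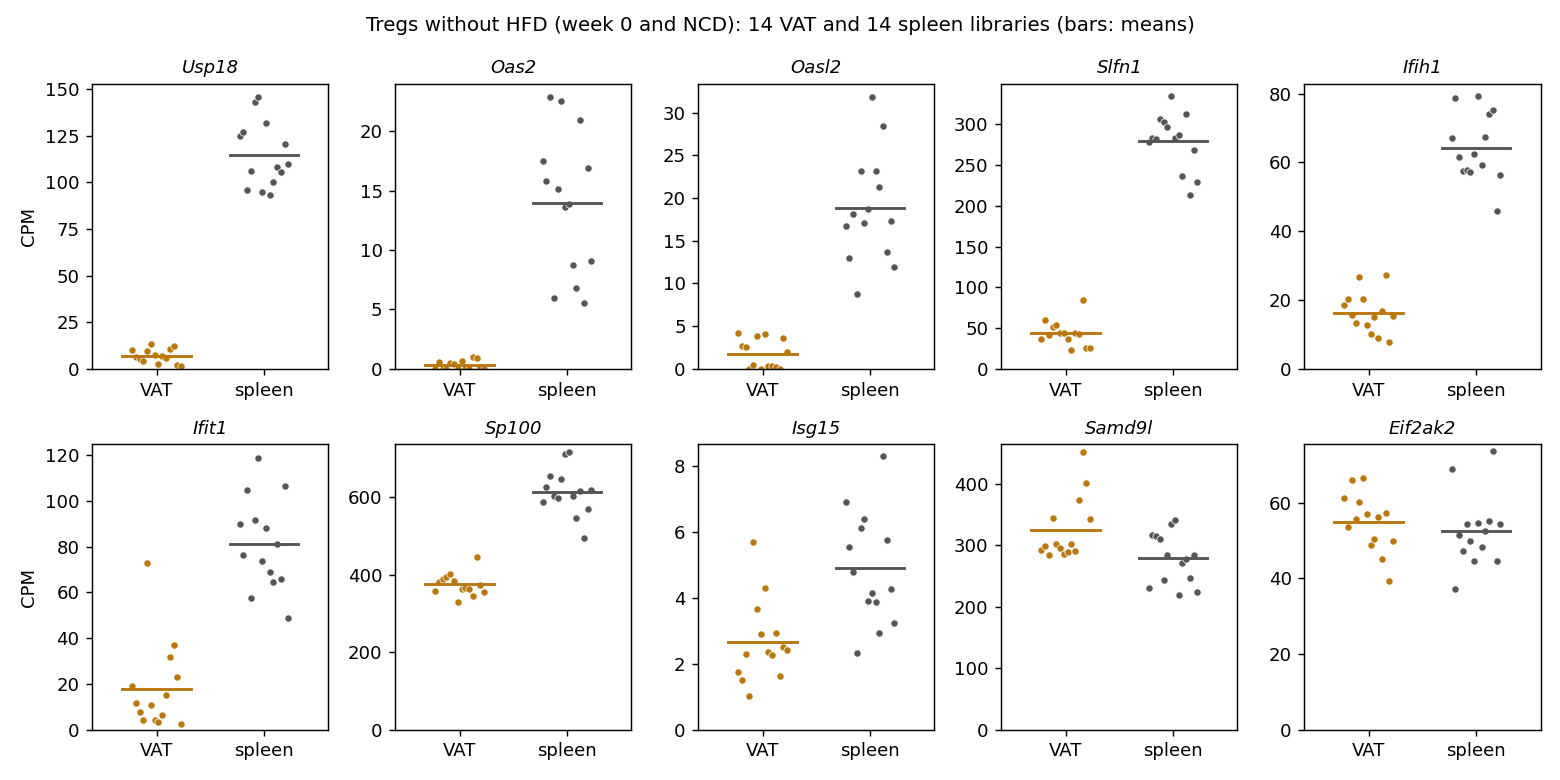
Normalised counts (CPM, linear axis) of 10 members in the 14 VAT libraries (left in each panel) and 14 spleen libraries (right) without HFD. Points are libraries and bars means. Usp18, Oas2, Oasl2, Slfn1, Ifih1 and Sp100 separate completely, whereas Isg15, Ifit1, Samd9l and Eif2ak2 overlap.

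Transcription factors upstream of the members were also lower in VAT, Irf9 by a log2 fold change of -1.42 ± 0.09, Irf7 of -1.32 ± 0.11, Stat2 of -0.76 ± 0.09 and Irf1 of -0.51 ± 0.11 (SE). Receptor chains and kinases differed in direction. Of the 4 receptor chains, Ifnar1 (-0.26 ± 0.05 SE), Ifnar2 (-0.60 ± 0.06) and Ifngr2 (-1.07 ± 0.11) were lower and Ifngr1 higher (1.96 ± 0.08). Jak2 and Tyk2 were higher in VAT and Jak1 lower. Of 16 interferon ligand genes, only Ifng reached the filter in this comparison. Per kilobase of exon, Ly6e and Ifi27l2a led the members in both tissues: Ly6e averaged 257 ± 27.5 CPM per kb in VAT and 302 ± 18.0 CPM per kb in spleen, and Ifi27l2a 251 ± 47.9 CPM per kb in VAT and 575 ± 150 CPM per kb in spleen (SD, n = 14 each).

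In VAT, 16 of the 40 members rose with HFD at week 16 and none fell. At that week 4.31% of the 14164 genes tested rose and 9.24% changed in either direction. The members' median log2 fold change was 0.95, against 0.02 for all genes (0.14 with total count scaling, under which the members' median was 1.07). Without overlap between diets, 27 members were higher and 2, Samd9l and Ly6e, lower with HFD, against 18.3% and 18.4% of all genes, shares that groups of 3 and 2 libraries make common. The members summed to 3802 to 4417 CPM in the 3 HFD libraries, against 3277 and 3434 CPM in the 2 NCD libraries. Usp18, Rtp4, Ifit3, Oas2, Oasl1 and Mx2 were above the filter's level in HFD libraries alone at this week and Ifi44 and Ifit3b in neither, although all passed over the fit as a whole.

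Among the nucleic acid sensors all 5 rose. Ifih1 was at 46.6, 45.3 and 48.6 CPM in HFD libraries, against 7.86 and 15.4 CPM in NCD libraries, a log2 fold change of 2.02 ± 0.36 (SE, adjusted p = 0.000411 by edgeR). Zbp1, a sensor of Z-form nucleic acid at chr2:173206612-173218923, was at 110, 45.5 and 61.3 CPM with HFD, against 32.8 and 21.6 CPM with NCD (1.42 ± 0.28 SE, adjusted p = 0.00134). Each HFD library exceeded both NCD libraries for these genes, and the 3 values of Ifih1 with HFD were close together whereas those of Zbp1 spread widely. Dhx58 changed by 1.04 ± 0.31, Ddx58 (RIG-I) by 0.70 ± 0.21 and Eif2ak2 by 0.70 ± 0.22 (SE).

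Rtp4 had the smallest p of the members, at 57.5, 37.0 and 45.8 CPM with HFD, against 4.22 and 0.441 CPM with NCD (log2 fold change 4.28 ± 0.62 SE, adjusted p = 5.28e-05 by edgeR). Usp18 was at 25.6, 38.9 and 55.2 CPM with HFD, against 1.92 and 1.54 CPM with NCD (4.51 ± 0.88 SE, adjusted p = 0.00173). Slfn1 was at 90.7, 73.3 and 98.4 CPM with HFD, against 25.9 and 25.8 CPM with NCD (1.77 ± 0.32 SE, adjusted p = 0.000519). For these 3 genes the lowest HFD library lay well above the highest NCD library, and no HFD library of Usp18 or Slfn1 reached the lowest of the 14 spleen libraries given above. Lgals3bp (chr11:118392751-118402092) was at 107, 68.0 and 51.4 CPM with HFD, against 18.6 and 23.1 CPM with NCD (1.87 ± 0.36 SE). All 3 PARP and DTX genes rose by similar amounts, Dtx3l by 0.82 ± 0.18, Parp14 by 0.86 ± 0.20 and Parp9 by 0.66 ± 0.19 (SE). Exons of Parp9 and Dtx3l, on opposite strands of chromosome 16, overlap over 9.4% and 8% of their lengths, and the sources used here do not say whether counting used strand. The remaining called members were Oas1a (1.15 ± 0.29), Ifit2 (1.23 ± 0.39), Xaf1 (0.92 ± 0.27) and Slfn8 (0.53 ± 0.17 SE).

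None of Ifit3b, Ifi44, Ifit3, Mx1, Oasl2 and Rsad2, which had the largest fold changes in culture, was called at week 16 by edgeR. DESeq2 called 18 members and edgeR without a filter 19, and Ifit3 was among the members either one added. Isg15 was at 4.48, 6.55 and 3.54 CPM with HFD, against 2.49 and 2.42 CPM with NCD, and did not pass (0.99 ± 0.59 SE, adjusted p = 0.358 by edgeR). Ifit3 was at 12.7, 15.4 and 3.07 CPM with HFD, against 3.07 and 0 CPM with NCD (2.72 ± 1.04 SE, adjusted p = 0.116). Ifit1 was at 58.8, 68.3 and 25.2 CPM with HFD, against 22.8 and 2.65 CPM with NCD (1.99 ± 1.01 SE, adjusted p = 0.271). The estimates were positive, but the libraries of a diet differed severalfold among themselves. Mx1 (0.71 ± 0.89), Rsad2 (1.57 ± 0.80) and Oasl2 (1.03 ± 1.02 SE) were likewise not called, and Oas2 rested on 1 count in the NCD libraries. Ly6e was at 991, 971 and 1017 CPM with HFD, against 1182 and 1165 CPM with NCD (-0.23 ± 0.10 SE, adjusted p = 0.173), and Bst2, which tethers budding virions, was at 62.2, 35.2 and 43.2 CPM with HFD, against 45.4 and 52.9 CPM with NCD (-0.06 ± 0.22 SE, a sign that turned with total count scaling). Across the 40 members, log2 fold changes in culture and at week 16 had a Pearson correlation of 0.53 and a Spearman correlation of 0.63. The comparisons share no library, but genes of low counts vary more in both, and genes are not independent replicates.

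**Figure D3:**
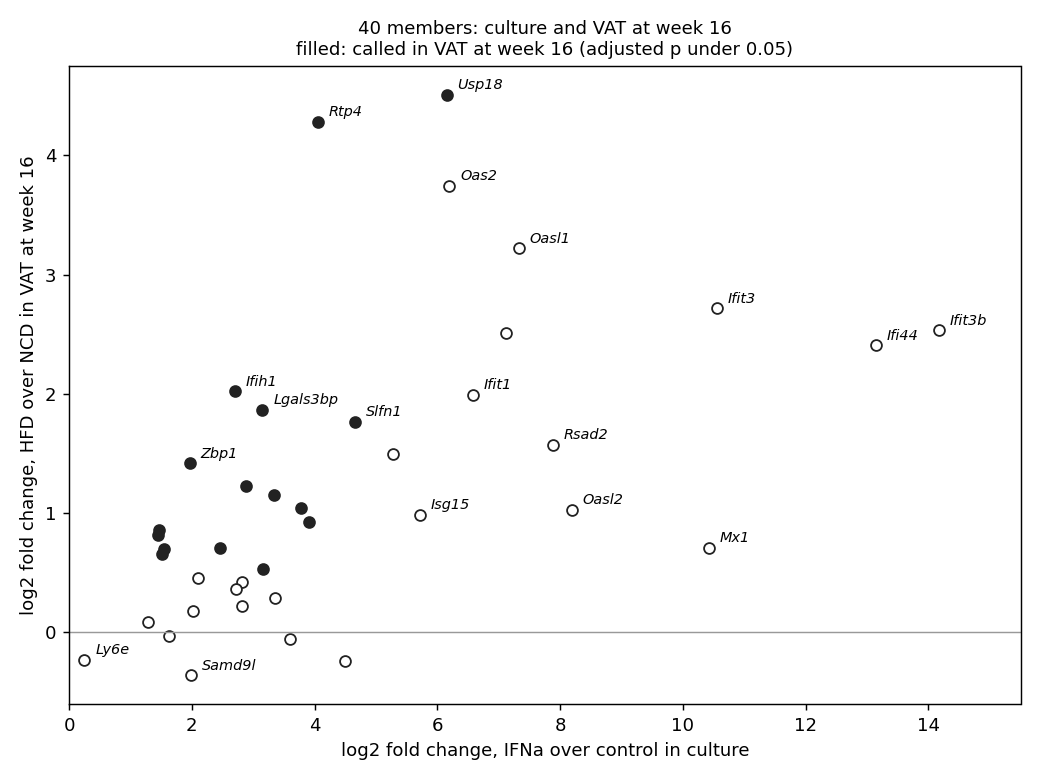
Each point is 1 of the 40 members, with its log2 fold change for IFNa against control in culture on the x axis and for HFD against NCD in VAT at week 16 on the y axis. Filled points passed the test at week 16. Rtp4 and Usp18 lie highest, Ifit3b and Ifi44 lie furthest right without passing at week 16, and Ly6e lies at the lower left.

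The count of 16 changed with the libraries in the fit. It was 5 without NCD week 16 replicate 3, 8 without NCD week 16 replicate 2 and 9 without HFD week 16 replicate 1, where a remaining single NCD library takes its spread from the other groups. Ifih1, Rtp4, Lgals3bp and Slfn1 passed in all 5 fits that left out 1 library, and their log2 fold changes stayed between 1.52 and 6.63. A fit of these 2 groups alone called 8 members. With week 0 and NCD weeks 2, 4 and 8 in place of NCD week 16, 15 members were called higher, 11 of them shared with the 16, and the members' median was 0.55 (an alternative chosen after seeing the data).

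Among transcription factors, Irf9 and Irf1 rose at week 16. Irf9 was at 220, 121 and 191 CPM with HFD, against 75.9 and 68.3 CPM with NCD (log2 fold change 1.31 ± 0.25 SE), and Irf1 changed by 1.13 ± 0.34 (SE). Stat2, at 0.05 ± 0.23 (SE), and Irf7, at 0.95 ± 0.32 (SE, adjusted p = 0.0644), did not pass. No receptor chain, kinase or Socs gene passed. Of 16 interferon ligand genes, 15 had no count in any HFD or any NCD library of VAT at week 16, and Ifng was at 3.94, 0 and 0.472 CPM with HFD, against 5.17 and 1.10 CPM with NCD.

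Other cell markers moved at the same week. Of 5 VAT Treg markers, 4 fell with HFD (Pparg by 1.86, Il1rl1 by 1.37, Areg by 1.25 and Klrg1 by 1.12 on the log2 scale), and the list summed to 2410 to 4295 CPM with HFD, against 6506 to 7329 CPM with NCD. Of 6 Treg markers, Il2ra fell by 1.09 and Ctla4 by 0.56 on the log2 scale, while Foxp3 did not pass (-0.12 ± 0.10 SE), and the list summed to 5751 to 6495 CPM with HFD, against 7292 to 7467 CPM with NCD. The 6 B cell markers summed to 1693 to 2485 CPM with HFD, against 353 to 370 CPM with NCD. Nearly all of this was Ighm, at 2460, 1679 and 1931 CPM with HFD, against 367 and 348 CPM with NCD (adjusted p = 0.0652 by edgeR). Cd79b was the 1 list gene called (16.0 CPM with HFD and 2.23 CPM with NCD on average), Pax5 had no count with HFD, and Cd79a and Ms4a1 stayed at or below 5.56 CPM in all 5 libraries. In the cultures Ighm averaged 4585 CPM with IFNa and 4312 CPM without. Among dendritic cell markers Zbtb46 rose and Xcr1 fell, with sums of 21.5 to 29.9 CPM with HFD, against 12.8 to 13.2 CPM with NCD. Plasmacytoid dendritic cell markers summed to 113 to 129 CPM with HFD, against 226 to 245 CPM with NCD. Of these 5 markers, 2 had no count with HFD, 3 had none with NCD, and only 2 reached the filter in VAT. Macrophage markers summed to at most 8.02 CPM with HFD and 2.87 CPM with NCD, and all 4 granulocyte markers were at 0. Of 3 endothelial markers, Pecam1 rose, at 77.2, 124 and 142 CPM with HFD, against 37.2 and 32.6 CPM with NCD (log2 fold change 1.72 ± 0.27 SE), while Cdh5 and Kdr were at 0 in all HFD libraries. Of 4 adipocyte markers, Fabp4 fell (-4.49 ± 1.13 SE), and the list summed to at most 0.708 CPM with HFD, against 4.19 to 5.56 CPM with NCD. No stromal, erythroid, or NK and CD8 cell marker passed, and these lists summed to at most 2.66, 9.5 and 51.3 CPM with HFD, against at most 4.41, 3.97 and 40.8 CPM with NCD, each in that order of lists. The part of these cells in the change of the members was not tested.

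**Figure D4:**
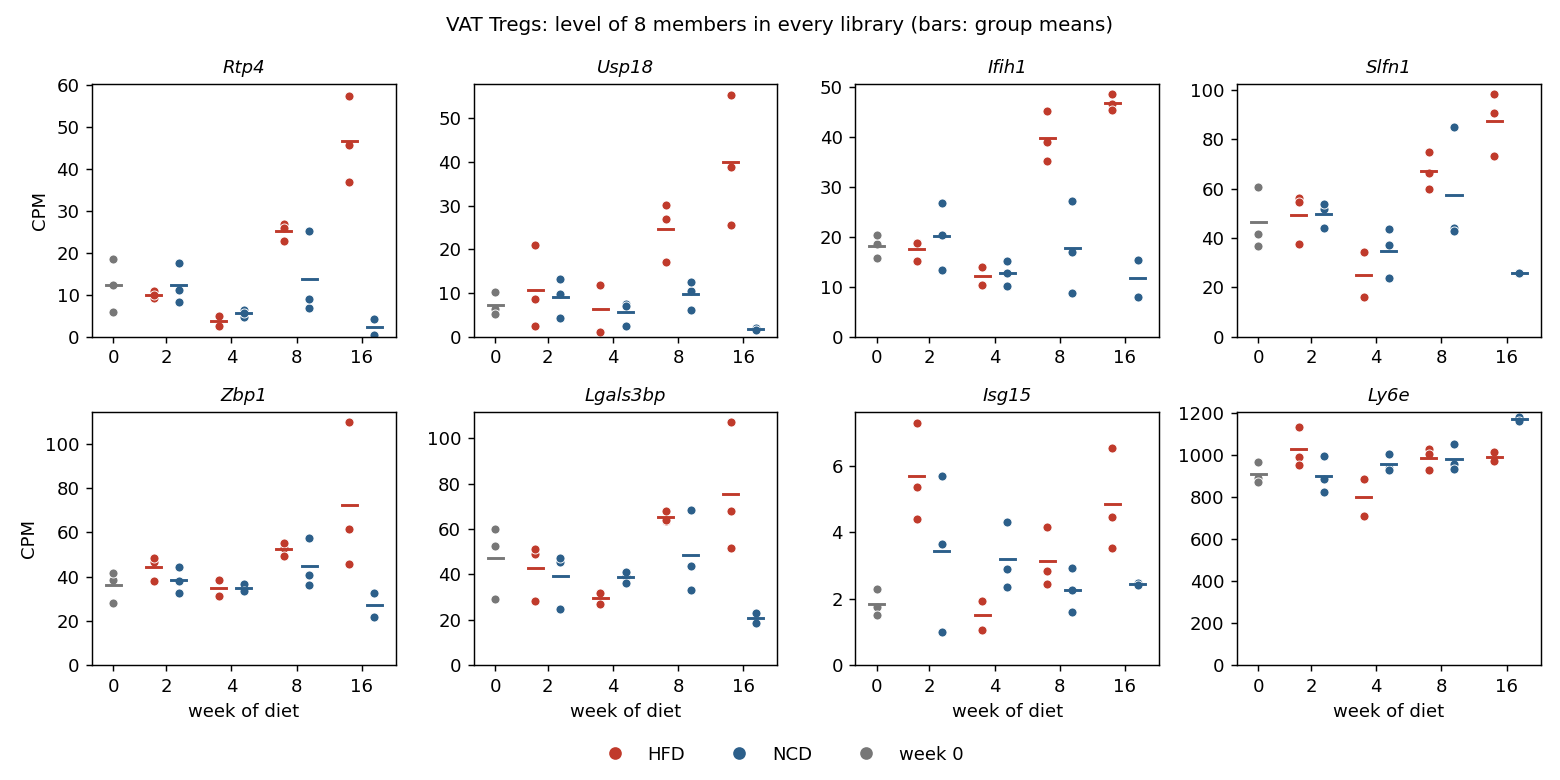
Normalised counts (CPM) of 8 members in single VAT libraries at weeks 0, 2, 4, 8 and 16, with HFD left of NCD within each week and bars at group means. Rtp4, Usp18, Ifih1 and Slfn1 separate at week 16, with all 3 HFD libraries above both NCD libraries, whereas Isg15 stays at or below 7.31 CPM in every library and the 3 HFD libraries of Ly6e lie below both NCD libraries at week 16.

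Earlier weeks showed little. At week 2 edgeR called no member (0.0565% of all genes were called) and DESeq2 called none. Unadjusted p was under 0.05 for 5 members (10.1% of all genes). Ifit3, Oasl1 and Mx2 were above the filter's level at that week in HFD libraries alone. At week 4 edgeR called none (0.0212% of all genes), and 4 had an unadjusted p under 0.05 (9.78% of all genes), 3 of them lower. DESeq2 called 1, Oas3, lower with HFD. Isg15, Ifit1, Oas3, Rsad2 and Usp18 were above the filter's level at that week in NCD libraries alone, and Mx1 in HFD libraries alone. The estimates leaned lower at week 4, with 27 of 40 negative and a median of -0.17, against -0.02 for all genes. At week 8 Ifih1 alone was called higher (0.833% of all genes were), at 35.1, 45.2 and 39.0 CPM with HFD, against 8.84, 16.9 and 27.2 CPM with NCD (log2 fold change 1.17 ± 0.30 SE, adjusted p = 0.0479 by edgeR). The groups did not overlap, yet the call was lost when any library but NCD replicate 3 was left out. Oas3, Oasl2, Oas1a and Usp18 also had all HFD libraries above all NCD libraries at week 8 without passing (9.52% of all genes had), and Usp18 was at 27.0, 17.0 and 30.1 CPM with HFD, against 6.06, 10.4 and 12.5 CPM with NCD (adjusted p = 0.345). Oasl2 was above the filter's level at that week in HFD libraries alone.

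The HFD effect differed between week 16 and the mean of weeks 2, 4 and 8 for 13 members, all higher at week 16, against 3.08% of all genes. Rtp4 differed by 4.27 ± 0.67, Usp18 by 3.92 ± 0.94, Slfn1 by 1.85 ± 0.36 and Ifih1 by 1.71 ± 0.40 (SE, log2 scale). Rtp4 and Usp18 were above the filter's level at week 16 in HFD libraries alone. The count was 5 without either NCD week 16 replicate 2 or replicate 3 and 7 without HFD week 16 replicate 1, and Rtp4 and Slfn1 passed in every fit that left out 1 library. Averaged over the 4 weeks, 6 members rose with HFD (Oas1a, Ifih1, Usp18, Rtp4, Mx2 and Zbp1, against 2.34% of all genes). Of these 6, Mx2 reached the filter's level in HFD libraries alone. That count was 2 without HFD week 4 replicate 3 or NCD week 16 replicate 3, 11 without NCD week 8 replicate 3, and 0 without week 16.

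The NCD side of this contrast was set against week 0 as well. On NCD, week 16 against week 0 in VAT gave no call among the members by edgeR (0.713% of all genes were called), although DESeq2 called 3. Unadjusted p was under 0.05 for 7 members (13.1% of all genes). Estimates were negative for 33 of 40 members, with a median of -0.24, against -0.01 for all genes. Rtp4 averaged 2.33 ± 2.67 CPM at NCD week 16 (SD, n = 2) and 12.2 ± 6.23 CPM at week 0 (SD, n = 3), a log2 fold change of -2.36 ± 0.61 (SE, adjusted p = 0.0628). Slfn1 averaged 25.8 CPM at NCD week 16 and 46.3 CPM at week 0, and Lgals3bp 20.9 CPM at NCD week 16 and 47.3 CPM at week 0. Usp18 changed by -2.05 on the log2 scale without passing. Rtp4, Usp18, Ifit3 and Oasl2 were above the filter's level in week 0 libraries alone, and Isg15 in NCD week 16 libraries alone. A fit of the NCD week 16 and week 0 groups alone called 7 members, Usp18 among them, and 5 of the 7 were lower at week 16. The share of 0.713% belongs to the main fit, and that of this smaller fit is not given. The HFD levels of Rtp4 at week 16 (37.0 to 57.5 CPM) also lay above all 3 week 0 libraries (5.99, 18.5 and 12.2 CPM), and those of Ifih1 (45.3 to 48.6 CPM) above 18.5, 20.3 and 15.8 CPM. For Lgals3bp, in contrast, the lowest HFD library of week 16 lay within the range of the week 0 libraries.

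In spleen no member was called for HFD against NCD at week 2 (0.0272% of all genes), week 4 (1.24%), week 8 (0%) or week 16 (0%). DESeq2 called none either. Unadjusted p fell under 0.05 for 7, 2, 3 and 9 members in that order of weeks (9.55%, 9.63%, 4.88% and 6.64% of all genes). The 7 and 9 members at weeks 2 and 16 were all higher with HFD, and those at weeks 4 and 8 all lower. Estimates were positive for 34, 11, 23 and 30 of 40 members in the same order. The members' medians were 0.21, -0.09, 0.05 and 0.23, against 0.0003, -0.004, 0.002 and -0.006 for all genes. Over the mean of the 4 weeks edgeR called none (0.933% of all genes), 9 had an unadjusted p under 0.05 (14.3% of all genes) and DESeq2 called 1. At week 16 Rtp4 was at 124, 82.9 and 79.8 CPM in spleens with HFD, against 105, 61.4 and 46.3 CPM with NCD, and Usp18 at 81.6, 101 and 119 CPM with HFD, against 105, 120 and 110 CPM with NCD. The diets overlapped for both genes. NCD week 16 against week 0 in spleen gave no call by edgeR (0.654% of all genes) or by DESeq2. Unadjusted p was under 0.05 for 3 members there (9.89% of all genes). Estimates were negative for 33 of 40 members in spleen too, with a median of -0.18.

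The difference between the tissues in the HFD effect was tested itself. At week 16, 4 members differed, all with a higher effect in VAT, against 2.14% of all genes: Usp18 by 4.64 ± 0.76, Rtp4 by 3.82 ± 0.62, Slfn1 by 1.80 ± 0.33 and Ifih1 by 1.78 ± 0.39 (SE, log2 scale). In VAT at that week, Usp18 and Rtp4 were above the filter's level in HFD libraries alone. The call for Ifih1 was lost without VAT NCD week 16 replicate 2. Over the mean of the 4 weeks, 3 differed, against 1.08% of all genes: Usp18 by 1.58 ± 0.34, Slfn1 by 0.56 ± 0.16 and Sp100, a scaffold of nuclear bodies, by 0.29 ± 0.07. Of 45 fits that left out 1 library, Sp100 passed in 45, Usp18 in 44 and Slfn1 in 15 (its adjusted p was 0.0477 by edgeR with every library). That count of 3 was 1 without VAT HFD week 4 replicate 3, 5 without VAT NCD week 8 replicate 3 and 0 without week 16.

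**Figure D5:**
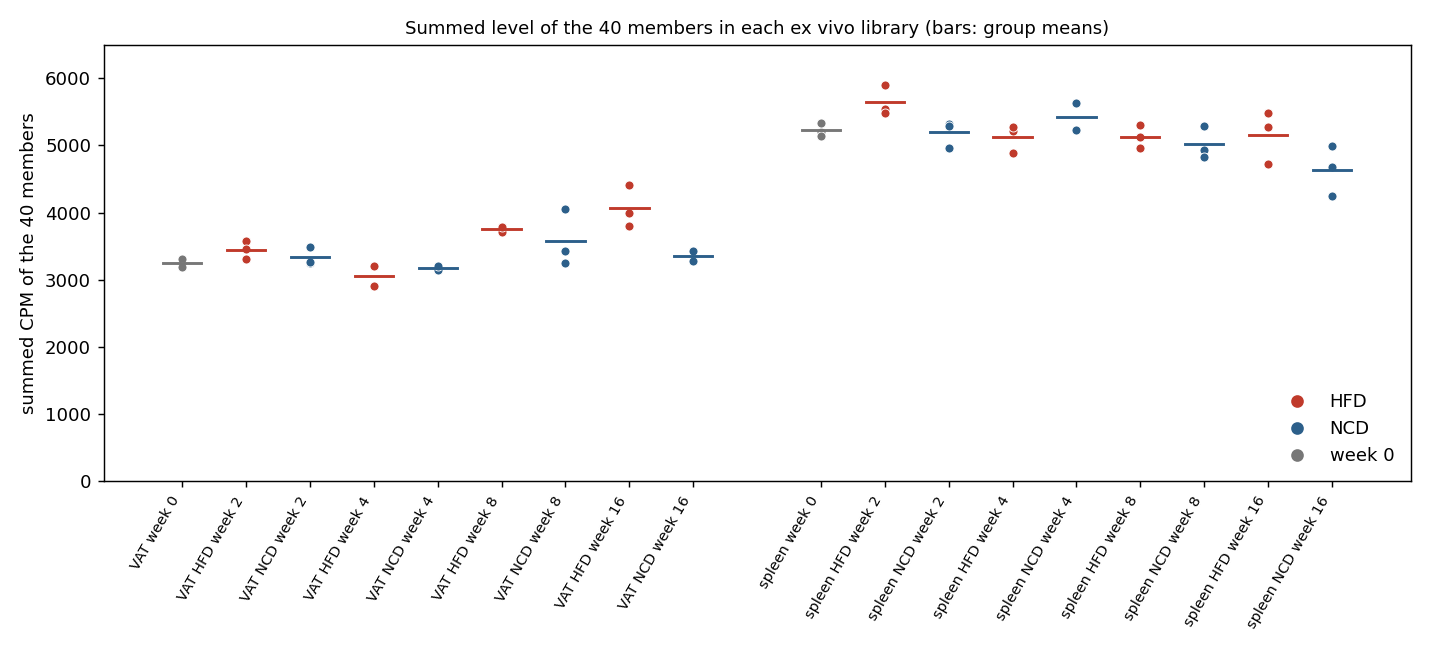
Sum of the 40 members (CPM) for each of the 51 libraries taken directly from mice, VAT left and spleen right, by week with HFD left of NCD. Points are libraries and bars means. VAT libraries span 2900 to 4417 CPM and spleen libraries 4254 to 5899 CPM, and the highest VAT library is an HFD library of week 16.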

How the data were processed

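The deposited table holds whole-number read counts per gene symbol for 56 libraries of 1000 double-sorted Treg cells (polyadenylated RNA, 18 PCR cycles, paired 38-base reads, per the labels' protocols). Per the submitters' processing notes the authors used STAR 2.7.3a, featureCounts and mm10. The sources used here do not give the annotation release, the strand setting or the treatment of multimapping reads. Short reads can split between near-identical copies, and 9 members share over 10% of their exonic 38-base words with other genes. Groups came from titles. Counts were scaled by TMM and tested in R 4.3.3 with edgeR 4.0.16 (filterByExpr by group, robust quasi-likelihood fit, Benjamini-Hochberg over all genes tested, adjusted p under 0.05) in 4 fits: culture (12604 genes), VAT (14164), spleen (14686) and both tissues (15601). SE is the log2 fold change divided by the square root of F. Levels are CPM with TMM factors over all 56 libraries. DESeq2 1.42.0, RLE factors, no filter, only the groups compared, a replicate block and leaving out each library were the alternatives; total count scaling, another reference for week 16 and leaving out week 16 were added after seeing the data. The fits were tested on simulated data. No 2 libraries of a group agreed within sampling noise (52 pairs, chi-square per degree of freedom 3.98 to 18.4). Intervals and floors cover counting error only. Shares of all genes called are those of the 4 main fits, and counts from alternatives stand without a share of their own. Exons came from GENCODE M21 (40 members matched) and promoters from RefSeq.

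The members, lists and tests were chosen with earlier results of these data known. Named genes are members passing a test, up to 10 a direction by smallest p, and, passed or not, Isg15, Usp18, Ifit1, Ifit3, Rsad2, Mx1, Oas2, Oasl2, Ifih1, Bst2, Rtp4, Zbp1, Ly6e and Slfn1. Other members named were chosen after their values were seen. A few genes of the pathway and marker lists are not reported here.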

Additional observations from a re-analysis of the deposited data

Results flagged for a closer look

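For 13 members the HFD effect in VAT differed between week 16 and the mean of weeks 2, 4 and 8 in a test of the difference itself (edgeR, adjusted over all genes tested). On the log2 scale the differences were 4.27 for Rtp4 (adjusted p = 0.000259), 3.92 for Usp18, 1.92 for Oas3, 1.85 for Slfn1 (adjusted p = 0.00162), 1.82 for Lgals3bp, 1.71 for Ifih1, 1.50 for Ifit2, 1.27 for Zbp1, 1.16 for Dhx58, 1.03 for Xaf1, 0.96 for Parp14, 0.77 for Dtx3l and 0.70 for Parp9. Rtp4 and Usp18 were above the filter's level at week 16 in HFD libraries alone. Oas3 was not called at week 16 (1.50), and its HFD effects at weeks 2, 4 and 8 were -0.09, -2.58 and 1.39. At week 4 it was above the filter's level in NCD libraries alone. Week 16 holds 2 NCD libraries, and each left out in turn reduced the number to 5. For 4 members the HFD effect at week 16 was higher in VAT than in spleen, by 4.64 for Usp18 (adjusted p = 0.00012), 3.82 for Rtp4 (adjusted p = 8.97e-05), 1.80 for Slfn1 and 1.78 for Ifih1. Over the mean of weeks the effect was higher in VAT by 1.58 for Usp18, 0.56 for Slfn1 and 0.29 for Sp100 (adjusted p = 0.0127).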

How the results depend on the processing

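The direction held under each alternative run for the counts with IFNa (39 to 40 members when 1 library was left out), VAT against spleen (36 to 37) and HFD in VAT at week 16 (5 to 14). Leaving out 1 library gave 0 to 1 at VAT week 8, 2 to 11 for the VAT mean, 5 to 14 for week 16 minus earlier weeks, 0 to 2 for the spleen mean, 1 to 5 for VAT minus spleen over weeks, 3 to 6 at week 16, and 0 otherwise. Without a filter the number called was 1 at VAT week 2, 1 at VAT week 4, 3 at VAT week 8, 1 at spleen week 2, 3 for the spleen mean, 6 for VAT minus spleen over weeks, 9 at week 16, and 3 in VAT and 1 in spleen for NCD week 16 against week 0. DESeq2 called 1 at VAT week 4, 2 at VAT week 8, 1 for the spleen mean, 5 for VAT minus spleen over weeks and 3 for NCD week 16 against week 0 in VAT. Fits of only the groups compared called 0 at VAT week 8, 8 at VAT week 16 and 7 for NCD week 16 against week 0 in VAT. Without week 16, 0 remained for the VAT mean and 0 for VAT minus spleen over weeks. Total count scaling turned Samd9l between tissues to -0.00686 and Bst2 at VAT week 16 to 0.0598. With week 0 and NCD weeks 2, 4 and 8 as the other side, Bst2 was 0.319 and Ly6e 0.0821, and Bst2 was -0.325 to 0.111 without 1 library (0.0606 without NCD replicate 3). The cause was not tested. Replicate numbers paired libraries little. The correlation of deviations was -0.0552 to 0.19 over 21 HFD and NCD pairs, 1 over 0.1. It was -0.092 to 0.243 over 24 VAT and spleen pairs, 2 over 0.1. The pairs over 0.1 all lay at week 16. They were HFD and NCD in spleen, replicate 1 (0.19), and VAT and spleen on HFD, replicates 1 (0.243) and 3 (0.165). With replicate numbers as a block, 12 members were called at VAT week 16, 5 for the VAT mean, 10 for week 16 minus earlier weeks, 4 for VAT minus spleen over weeks, 4 at week 16, 40 with IFNa and 37 between tissues. At about 1 CPM or less, single counts decide values such as Oas2 and Ifi44 in VAT.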
